A study of Mus musculus with 25 samples.

Results

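The chromatin contacts that KLF4 HiChIP detected on day 3 of reprogramming were compared with the H3K27ac contacts of the fibroblasts from which reprogramming starts. In HiChIP, DNA ends found near each other in the nucleus are ligated, and fragments bound by a chosen protein or mark are then pulled down with an antibody. The authors' deposited day 3 KLF4 list holds 23720 contacts, each a pair of 10 kb genome bins on the same chromosome, and the deposited fibroblast H3K27ac list holds 60870. All bin pairs of both lists were used, out of 493983 distinct bin pairs in the 9 lists of the series. They come from 5 of its 25 libraries, 3 for KLF4 and 2 for H3K27ac. Both groups started from embryonic fibroblasts of the mouse (MEFs), taken at E13.5 from embryos heterozygous for a doxycycline-inducible OKSM cassette, for the transactivator rtTA3 (written M2rtTA in the series' design text) and for an Oct4-GFP reporter. The H3K27ac libraries were made from MEFs collected at passage 3, and the KLF4 libraries from the unsorted population after 3 days of doxycycline with ascorbic acid. The antibody and the day differ together between the groups, so their parts in any difference cannot be told apart. KLF4 HiChIP of MEFs and H3K27ac HiChIP of day 3 cells were not used here.

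KLF4 is a zinc finger transcription factor that binds GC-rich sites and belongs, with OCT4, SOX2 and c-MYC, to the OKSM factors whose forced expression turns fibroblasts into pluripotent cells. H3K27ac, acetylation of lysine 27 of histone H3, marks active promoters and enhancers, so H3K27ac HiChIP reports contacts that touch active elements. In fibroblasts such elements are known to serve genes of the extracellular matrix, of the actin cytoskeleton and of the AP-1 factors, whereas early reprogramming is known for the loss of the fibroblast programme and for the gain of epithelial genes.

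A large share of the early KLF4 contacts was already listed as acetylated contacts of the fibroblasts. The same bin pair was listed in both for 10901 of the 23720 day 3 KLF4 pairs, or 46.0% (95% Wilson interval 45.3 to 46.6), which is 17.9% of the longer H3K27ac list (17.6 to 18.2). At single anchors the overlap was larger. Of the 23624 bins with a day 3 KLF4 pair, 15662 also had a MEF H3K27ac pair, or 66.3% (65.7 to 66.9), against 30.4% of all 144091 bins that any of the 9 lists holds. Both shares depend on how long the MEF list is: cut to the 23720 strongest MEF pairs, as many as the day 3 list holds, they were 24.7% of pairs and 43.6% of anchors. The genes that lead the shared pairs were Ahnak, which encodes a giant scaffold protein of the cell cortex, and Dusp1, an early-response phosphatase that inactivates MAP kinases, each with 16 day 3 KLF4 pairs at its start site and all 16 in the MEF list. The genes that lead the KLF4 pairs without any MEF H3K27ac pair at their bin were the long noncoding RNA gene Gm29979, whose bin also holds the start of Pipox, with 13 day 3 pairs, and Plekhh1, with 12.

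The promoters of the 3 leading genes of each kind, as RefSeq places them on GRCm38.p6, the assembly also called mm10, are shown because they lie in the KLF4 anchor bins counted above. Each runs from 250 bases before to 50 bases after the start site, 5′ to 3′ on the gene's strand. Capitals mark matches to a KLF-type motif, GGGNGNGGC on either strand. The first set had most pairs in both lists: Ahnak at chr19:8989034-8989333, plus strand, Dusp1 at chr17:26508423-26508722, minus strand and the long noncoding RNA gene Gm30234 at chr19:53076097-53076396, minus strand.
Ahnak: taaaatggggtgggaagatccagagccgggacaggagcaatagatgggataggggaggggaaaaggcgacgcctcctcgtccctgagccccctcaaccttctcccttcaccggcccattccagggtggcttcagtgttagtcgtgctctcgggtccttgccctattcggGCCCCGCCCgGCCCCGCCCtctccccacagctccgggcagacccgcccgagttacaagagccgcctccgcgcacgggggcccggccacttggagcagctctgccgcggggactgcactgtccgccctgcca
Dusp1: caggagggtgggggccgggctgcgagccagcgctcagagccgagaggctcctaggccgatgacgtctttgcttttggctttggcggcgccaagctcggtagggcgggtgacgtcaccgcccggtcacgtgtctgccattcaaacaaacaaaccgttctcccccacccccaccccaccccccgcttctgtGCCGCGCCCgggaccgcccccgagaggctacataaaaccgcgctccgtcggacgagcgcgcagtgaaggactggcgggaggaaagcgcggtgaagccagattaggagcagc
Gm30234: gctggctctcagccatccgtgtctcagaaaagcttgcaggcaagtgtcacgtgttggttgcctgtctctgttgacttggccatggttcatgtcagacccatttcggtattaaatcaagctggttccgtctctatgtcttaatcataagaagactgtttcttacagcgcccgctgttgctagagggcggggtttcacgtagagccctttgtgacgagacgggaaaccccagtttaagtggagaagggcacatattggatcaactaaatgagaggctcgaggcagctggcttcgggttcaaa
The other set had most day 3 KLF4 pairs among genes with no MEF H3K27ac pair: Gm29979 at chr11:77896720-77897019, plus strand, Plekhh1 at chr12:79028913-79029212, plus strand and the long noncoding RNA gene 1700025N23Rik at chr6:39067537-39067836, minus strand.
Gm29979: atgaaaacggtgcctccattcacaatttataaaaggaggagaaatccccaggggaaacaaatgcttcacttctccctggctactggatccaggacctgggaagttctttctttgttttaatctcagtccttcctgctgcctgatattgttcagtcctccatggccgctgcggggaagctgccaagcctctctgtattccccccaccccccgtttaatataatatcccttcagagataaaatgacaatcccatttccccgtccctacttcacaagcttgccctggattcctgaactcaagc
Plekhh1: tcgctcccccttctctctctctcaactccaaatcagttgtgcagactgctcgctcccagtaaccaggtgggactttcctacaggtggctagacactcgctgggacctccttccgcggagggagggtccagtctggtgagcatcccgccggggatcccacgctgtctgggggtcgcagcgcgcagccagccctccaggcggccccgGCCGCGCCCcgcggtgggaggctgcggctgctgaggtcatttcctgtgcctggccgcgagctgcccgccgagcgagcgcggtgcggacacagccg
1700025N23Rik: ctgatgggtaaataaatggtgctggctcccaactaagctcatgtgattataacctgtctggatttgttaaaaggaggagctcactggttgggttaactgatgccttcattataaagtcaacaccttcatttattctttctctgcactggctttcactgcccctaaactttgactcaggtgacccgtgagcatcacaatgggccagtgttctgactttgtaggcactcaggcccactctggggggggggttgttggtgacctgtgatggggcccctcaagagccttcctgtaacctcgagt
Ahnak had 2 matches, Dusp1 and Plekhh1 had 1 each, and the other 3 promoters had 0, so both sets held promoters with and without these letters. Over all 32851 RefSeq promoters 25.8% (25.3 to 26.2) held a match. The share was 38.7% (37.4 to 39.9) of the 5717 promoters whose bin was an anchor in both lists, 32.7% (30.5 to 35.0) of the 1674 in bins with day 3 KLF4 pairs only, 28.9% (27.7 to 30.1) of the 5763 in bins with MEF H3K27ac pairs only and 20.5% (19.97 to 21.1) of the 19697 in neither. GC content moved with these shares, with medians of 59.3%, 56.3%, 55.3% and 50% in the same order. Among promoters with a GC content of 55 to 65% the shares lay closer together, at 39.4%, 38.8%, 36.1% and 34.0%. The AP-1 motif TGANTCA, a palindrome apart from its middle base, was in 7.81% of all promoters and in 6.66% of those whose bin was an anchor in both lists. A match is a description of these letters only.

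The 5 libraries differed in depth, and their lists were filtered by the authors. Contact totals, as the deposited counts and CPM values imply them, were 54.4, 136 and 181 M in the 3 KLF4 libraries and 74.98 and 105 M in the 2 H3K27ac libraries. CPM is the count of a bin pair scaled by the contacts of its chromosome, and every listed pair had a CPM above 3 in KLF4 replicates 1 and 2 and in both H3K27ac libraries, while KLF4 replicate 3 reached down to 0. A cutoff set within each chromosome lets pairs of short chromosomes in with fewer counts: chromosome 19 held 2259 day 3 pairs, 9.52% of the list, and 5 of the 8 genes with most shared pairs. A pair missing from the MEF list may still have been contacted below that cutoff. The fibroblast label was checked on its markers. Genes were placed here by RefSeq starts or, where RefSeq starts were not used, by the authors' names per bin. Those names are given only at anchor bins of further H3K27ac lists of the series, so genes placed by them had an H3K27ac contact there. Of 25 fibroblast and mesenchymal genes 20 had MEF H3K27ac pairs, 140 in all and up to 24 at a gene. Among the 8 of them that are fibroblast markers 6 had such pairs, 48 in all, and Pdgfra and Twist1 had 0. Of 26 markers of haematopoietic, endothelial, neural and skeletal muscle cells 9 had such pairs, 21 in all, of which 7 were at Cd14, a monocyte marker. These types differed. By RefSeq starts alone, 5 of 7 skeletal muscle markers (71.4%) had such pairs, 9 in all. That share was about the 72.2% of the 18 fibroblast and mesenchymal genes placed, which had 101 pairs. Haematopoietic markers had them at 0 of 4 genes, endothelial at 1 of 5 and neural at 1 of 7. The part of other cell types in the results was not tested.

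The remaining KLF4 pairs fell into 3 groups of like size. For 4592 pairs (19.4%) both bins were MEF H3K27ac anchors but were not listed with each other, for 4080 (17.2%) 1 bin was such an anchor, and for 4147 (17.5%) neither was. Pairs between MEF H3K27ac anchors that were not listed with each other spanned longer distances, with 35.9% at 50 kb or more, against 17.1% of the pairs listed in both and 10.01% of those with no such anchor. The pairs with no MEF H3K27ac anchor also had fewest gene starts: 70.5% of them had no RefSeq start in either bin, against 47.2% of the listed pairs (chromosome 18, whose start sites were not analysed here, left out).

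Bins with many early KLF4 contacts were mostly MEF H3K27ac anchors. Of the 13857 bins with 1 day 3 KLF4 pair, 59.1% (58.3 to 60.0) had a MEF H3K27ac pair. The share rose to 70.6% with 2 pairs, 79.3% with 3 to 5 and 87.8% with 6 to 10, and reached 92.4% (86.8 to 95.7) among the 144 bins with 11 or more. The cutoff set within each chromosome lets pairs of short chromosomes into both lists with fewer counts. Its part in this rise was not tested.

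Stronger KLF4 pairs were more often listed in MEFs, as the plot of the share by strength and distance shows. The median CPM of pairs listed in MEF H3K27ac was 6.02, 5.99 and 5.12 in KLF4 replicates 1, 2 and 3, and that of pairs not listed was 5.15, 4.85 and 4.17. The listed pairs were higher in each of the 3 libraries, by a ratio of medians of 1.21 ± 0.0365 (SD, n = 3). Ranked by mean CPM, 21.8% (20.2 to 23.5) of the weakest decile and 66.4% (64.5 to 68.3) of the strongest decile were listed. The share fell with distance, from 49.8% (48.6 to 50.9) at 10 kb to 39.1% (36.6 to 41.6) at 100 kb or more. It also differed with gene starts: 39.4% (38.6 to 40.3) of pairs with no start in either bin were listed, 52.7% (51.6 to 53.8) with a start in 1 bin and 60.9% (58.7 to 63.1) with starts in both.

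**Figure D1:**
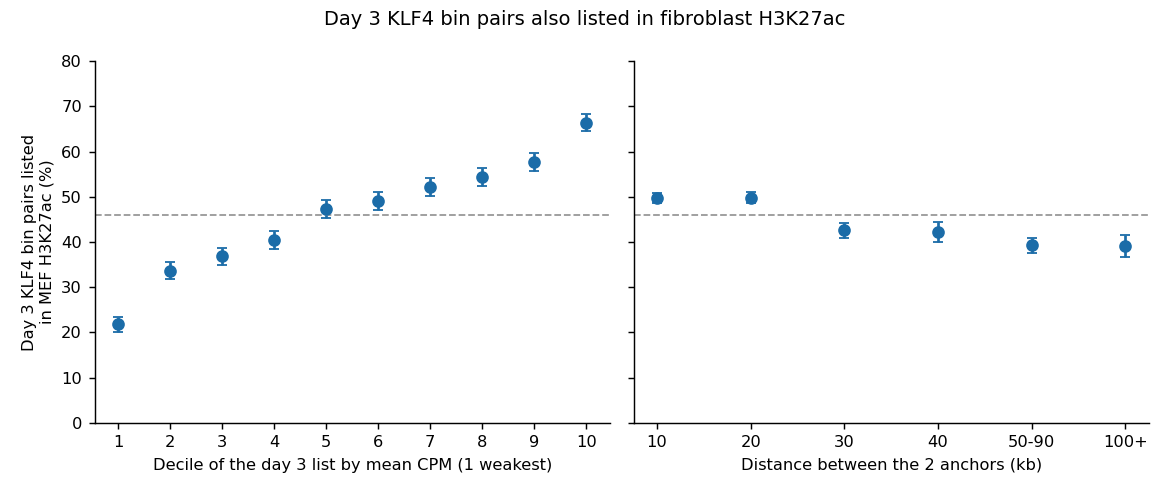
Percent of day 3 KLF4 bin pairs also listed in MEF H3K27ac, by decile of the day 3 list ranked by mean CPM (left) and by anchor distance in kb (right); points are percents, bars 95% Wilson intervals, and the dashed line the 46.0% of the whole list. The share climbs from 21.8% in the weakest decile to 66.4% in the strongest, and falls from 49.8% at 10 kb to 39.1% at 100 kb or more.

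From the fibroblast side the picture was similar. Of the weakest decile of MEF H3K27ac pairs 7.74% (7.09 to 8.43) were in the day 3 KLF4 list, and of the strongest decile 33.4% (32.2 to 34.6). MEF pairs with a gene start in both bins were in the KLF4 list in 32.1% of cases (30.6 to 33.7), against 13.8% (13.4 to 14.2) of those with none. The share of pairs listed in MEF H3K27ac was 53.3% (51.8 to 54.9) for the 4047 KLF4 pairs of day 6 and 36.2% (35.6 to 36.8) for the 24589 KLF4 pairs of embryonic stem (ES) cells, so the 46.0% of day 3 lay between them. No condition has a replicate list, so the intervals cover counting error only and are no test of this order. The day 6 list comes from cells sorted for SSEA1 and is the shortest, and the shares were not adjusted for list length or strength.

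Whether an early KLF4 contact recurred in pluripotent cells differed with acetylation there, as the plot by H3K27ac contact in MEF and ES cells shows. Of the day 3 KLF4 pairs, 6289 (26.5%) were in the H3K27ac lists of both MEF and ES cells, 4612 (19.4%) in that of MEF only, 4635 (19.5%) in that of ES only and 8184 (34.5%) in neither. A pair is called acetylated below where the H3K27ac list of those cells holds it. Pairs acetylated in both were found in the ES KLF4 list in 62.9% of cases (61.7 to 64.1) and pairs acetylated in ES only in 47.2% (45.7 to 48.6). Pairs acetylated in MEF only reached 11.8% (10.9 to 12.8), and those acetylated in neither 8.58% (7.99 to 9.20). The day 6 KLF4 list held 18.5% (17.5 to 19.5) of the pairs acetylated in both, and 10.4% (9.55 to 11.3), 9.13% (8.33 to 9.99) and 6.43% (5.92 to 6.98) of those in ES only, MEF only and neither. Fibroblast Hi-C, which ligates contacts without an antibody, held 58.7% of the pairs acetylated in both, 52.3% of MEF only, 45.9% of ES only and 38.9% of neither. It was made from fibroblasts, so its range cannot be set against that of ES KLF4. The classes also differed in strength at day 3. Their median CPM in KLF4 replicate 1 was 6.30 for both, 5.62 for MEF only, 5.31 for ES only and 4.97 for neither. The part of strength in these shares was not tested.

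**Figure D2:**
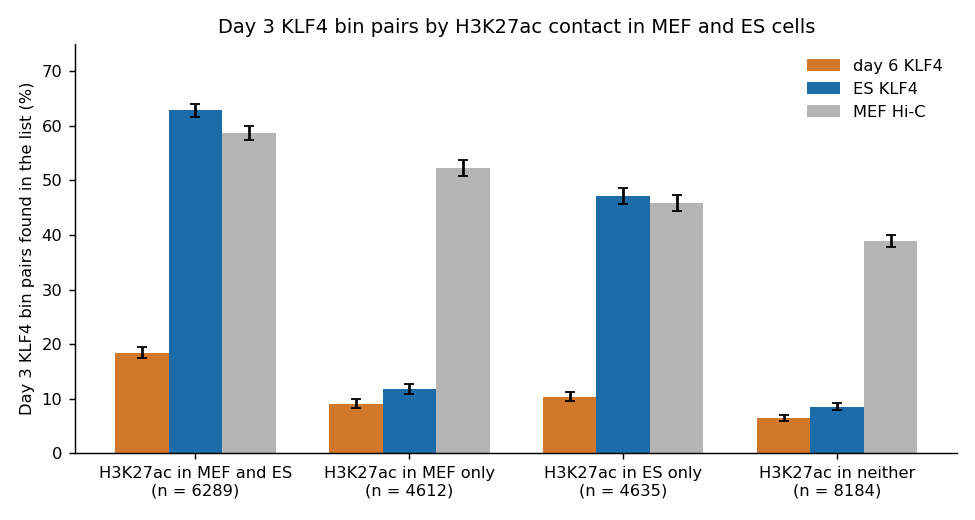
Percent of day 3 KLF4 bin pairs found in the day 6 KLF4, ES KLF4 and MEF Hi-C lists (y axis, starting at 0), for pairs listed in H3K27ac of both MEF and ES cells, of 1 of them, or of neither; error bars are 95% Wilson intervals and n is the number of bin pairs. ES KLF4 bars stand at 62.9% and 47.2% where ES cells had the H3K27ac contact, and at 11.8% and 8.58% where they did not.

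Without regard to ES acetylation, 41.3% (40.3 to 42.2) of the day 3 pairs listed in MEF H3K27ac and 22.5% (21.8 to 23.3) of those not listed were in the ES KLF4 list. In the day 6 list the shares were 14.5% (13.9 to 15.2) and 7.86% (7.41 to 8.34). Listed pairs were thus found more often in both later KLF4 lists. They were also the stronger pairs at day 3, and the part of strength in this was not tested.

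Most genes touched by early KLF4 contacts were already touched by acetylated contacts. With RefSeq start sites, 6027 of 27025 genes (22.3%) had a day 3 KLF4 pair at the bin of their start, and 4657 of these, 77.3% (76.2 to 78.3), had a MEF H3K27ac pair there, against 34.3% of all genes placed. With the authors' own gene names per bin, 4129 of 5094 such genes, 81.1% (79.96 to 82.1), had one, against 57.7% of all 12695 names. These names are given only at anchor bins of further H3K27ac lists of the series, so they cover genes with an H3K27ac contact there, not all genes. The very same bin pair was in both lists for 64.97% (63.8 to 66.2) of the RefSeq genes with a day 3 pair. The 1370 genes with a day 3 KLF4 pair and no MEF pair had an ES H3K27ac pair in 58.2% of cases (55.6 to 60.8), against 83.3% (82.2 to 84.3) of the genes with both. Gene counts below use RefSeq starts, and genes whose starts share a bin share its pairs.

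After Ahnak and Dusp1, the genes with most shared pairs were Gm30234 (15 of 24 day 3 pairs in the MEF list), Gnaq, a G protein alpha subunit (13 of 20), Emp1, an epithelial membrane protein (13 of 13), Bscl2, the seipin of lipid droplets, in a bin with Gng3 (12 of 15), Avpi1 (12 of 14) and the long noncoding RNA gene Gm41638 (12 of 14). They differed in their number of acetylated contacts: Ahnak had 32 MEF H3K27ac pairs in all and Bscl2 27, but Avpi1 had 13 and Emp1 15. Emp1 also had the fewest H3K27ac pairs in ES cells, 2, where Bscl2 had 66. With 1 count cutoff for all chromosomes the shared pairs of Ahnak came to 3, of Dusp1 to 4 and of Bscl2 to 0, whereas Emp1, on chromosome 6, had 9.

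Among genes with day 3 KLF4 pairs and no MEF H3K27ac pair, 6 genes with 7 pairs each followed Gm29979 and Plekhh1: 1700025N23Rik, 4930432L08Rik in a bin with Pdcl2, Gm31486, Gm33968, Gm39239 and Ngfr, the p75 neurotrophin receptor. The strongest pair of Gm29979 joined the bins that start at 77880001 and 77890001 on chromosome 11, with 16.7, 15.4 and 11.9 CPM in the 3 KLF4 libraries. That of Plekhh1 joined 79020001 and 79030001 on chromosome 12, with 11.4, 9.04 and 9.497 CPM. At Plekhh1 10 of the 12 pairs, and at Gm29979 6 of the 13, recurred in the ES KLF4 list, whereas 0 of the 7 pairs of 1700025N23Rik and of Gm33968 did so. ES cells had 11 H3K27ac pairs at the Plekhh1 bin and 0 at those of 1700025N23Rik and Gm33968, so genes without a listed MEF H3K27ac pair at their bin differed among themselves in pluripotent cells. Acetylation of the bins themselves was not measured here.

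The gene lists ranged widely in how many of their KLF4 contacts were also in the MEF list, as the plot of the gene lists shows. Over all 17492 protein-coding genes placed, 24.6% had a day 3 KLF4 pair, 36.8% a MEF H3K27ac pair, and 79.2% of those with a day 3 pair also had a MEF pair. Summed over these genes, 6019 of 10365 day 3 pairs were shared, a pair being counted at each gene it touches. Of 13 AP-1 and related factors, which drive early-response genes, 8 had day 3 KLF4 pairs, and all 23 of their pairs were in the MEF list. Fos led with 8 pairs and Junb followed with 5. The strongest Fos pair, between the bins at 85460001 and 85470001 on chromosome 12, had 11.4, 12.5 and 10.6 CPM in the KLF4 libraries and 18.1 and 17.0 in the H3K27ac libraries. Of 28 genes of YAP/TEAD, SRF and the actin cytoskeleton, 22 had day 3 pairs and 21 of these had MEF pairs, with 88 of 108 pairs shared. After Ahnak the most pairs were at Cnn2, a calponin, with 5 of 11 shared, at Tpm1, a tropomyosin, with 8 of 10, and at Myh9, the heavy chain of non-muscle myosin, with 8 of 8.

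**Figure D3:**
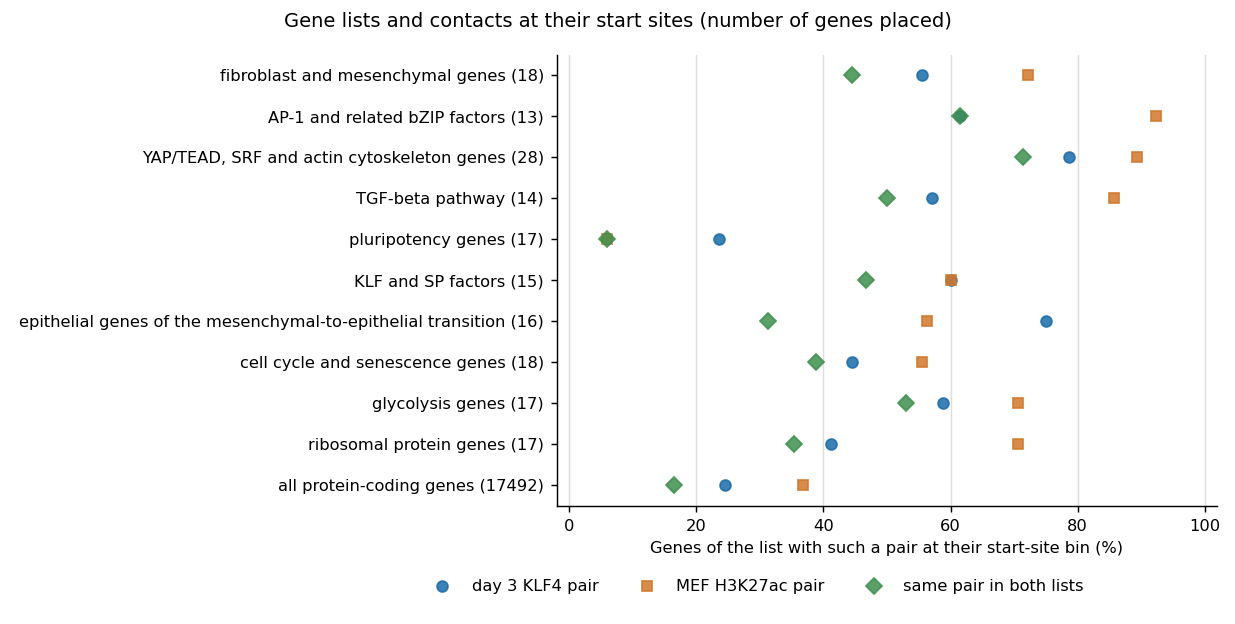
Percent of the genes of each list (number placed in parentheses) with a day 3 KLF4 pair, a MEF H3K27ac pair, or the same pair in both lists at the bin of their RefSeq start; each point is 1 list and has no replicate error. Pluripotency genes had MEF pairs in 1 of 17 cases, and AP-1 factors in 12 of 13.

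Of 18 fibroblast and mesenchymal genes placed by RefSeq, 13 (72.2%) had MEF H3K27ac pairs and 10 (55.6%) had day 3 KLF4 pairs, 8 of them with a shared pair. Over all protein-coding genes the MEF share was likewise the larger, at 36.8% against 24.6%. Runx1 had most day 3 pairs, 11, of which 6 were shared, and Vim, the intermediate filament of mesenchymal cells, had 5, of which 4 were shared. The strongest Vim pair had 15.0, 11.1 and 7.86 CPM in the KLF4 libraries and 8.63 and 11.9 in the H3K27ac libraries, so the groups overlapped. Col1a2, a chain of type I collagen, had 7 MEF pairs and 1 day 3 pair, and Col5a1 had 8 and 0. By the authors' names, Col1a1 had 8 MEF and 0 day 3 pairs and Thy1 9 and 1. Twist1 was the reverse, with 2 day 3 pairs and 0 MEF pairs. The TGF-beta pathway, which keeps the mesenchymal state, had 8 of 14 genes with day 3 pairs and 7 of these with MEF pairs. Its receptor gene Tgfbr2 had 4 of 5 pairs shared and the follistatin-like gene Fstl1 4 of 4, while Ltbp1, which binds latent TGF-beta, had 1 of 6, and the receptor gene Tgfbr1 had 2 day 3 pairs and 0 MEF pairs. Tgif1, a repressor of TGF-beta targets, had 4 of 7 shared, and 28 MEF pairs.

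Of 16 epithelial genes placed, 12 had day 3 KLF4 pairs and 9 had MEF H3K27ac pairs. Of the 12, 8 had a MEF pair at the bin and 5 a shared pair, with 17 of 42 pairs shared. Tjp1, the tight junction protein ZO-1, held 8 of the shared pairs among its 12, and Cldn4, a claudin, 4 of 4. Crb3, a polarity gene of the apical membrane, had 6 day 3 pairs and 0 MEF pairs. Dsp, which encodes desmoplakin, had 3 and 0, and Epcam, an epithelial adhesion molecule, 2 and 0. The strongest Crb3 pair had 5.47, 9.25 and 10.1 CPM, that of Dsp 5.35, 6.77 and 6.28, and that of Epcam 3.83, 9.25 and 8.002 in KLF4 replicates 1, 2 and 3, so the shallowest library, replicate 1, was the lowest of the 3 each time. Each of these 3 pairs was also in the ES KLF4 list. By the authors' names Cdh1, the E-cadherin gene, had 6 day 3 pairs, 2 of them shared.

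Of 17 pluripotency genes placed, 4 (23.5%) had day 3 KLF4 pairs, about the 24.6% of all protein-coding genes, and 1 (5.88%) had a MEF H3K27ac pair, against 36.8%. Their day 3 pairs came to 9, of which 1, at Nanog, was in the MEF list. All 17 had H3K27ac pairs in ES cells. Fgf4 had 5 day 3 pairs, Nanog 2, and Pou5f1, the OCT4 gene, and Mycn 1 each. The Pou5f1 pair had 8.76, 7.10 and 8.002 CPM in the KLF4 libraries, the strongest Fgf4 pair 7.49, 8.64 and 6.94, and the strongest Nanog pair 6.09, 5.98 and 4.47. These 3 pairs were not listed in MEF H3K27ac and were in the ES KLF4 and ES H3K27ac lists. The Mycn pair spanned 520 kb with 4.90, 3.12 and 2.96 CPM and was in neither ES list.

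KLF and SP factors, which share the zinc finger domain of KLF4, had day 3 KLF4 pairs at 9 of 15 genes, and 7 of these had MEF pairs, with 23 of 42 pairs shared. Klf9 alone held 19 day 3 pairs, 11 of them shared, and lies on chromosome 19. Sp2 had 5 of 7 shared. The Klf4 gene itself had 0 day 3 pairs, 2 MEF H3K27ac pairs and 4 ES H3K27ac pairs. Of 18 cell cycle and senescence genes 8 had day 3 pairs, 7 of these with MEF pairs, with 24 of 30 pairs shared. The cell cycle inhibitor gene Cdkn1a had 7 of 9 shared and Cdkn1b 5 of 5. Of 17 glycolysis genes 10 had day 3 pairs, all 10 with MEF pairs, and 16 of 29 pairs were shared, led by Pkm, the pyruvate kinase gene, with 3 of 6. Of 17 ribosomal protein genes 7 had day 3 pairs, 6 of these with MEF pairs, and 12 of 20 pairs were shared, 6 of them at Rpl10. The shared parts of the KLF and SP, glycolysis and ribosomal protein lists were near that of all protein-coding genes, 6019 of 10365. Among the 23 markers of other cell types that RefSeq placed, Tek, an endothelial receptor gene, had 3 day 3 pairs and 0 MEF pairs, and the muscle gene Mylpf 1 and 3.

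The strongest early KLF4 contacts lay next to each other in and outside the MEF list. On chromosome 11 the bins from 3140001 to 3200000, in the body of Sfi1, held the strongest pair of each kind. The pair of bins at 3170001 and 3190001 had 80.8, 97.3 and 99.1 CPM in the KLF4 libraries and 99.4 and 86.6 in the H3K27ac libraries, with groups that overlap. The pair at 3170001 and 3180001 had 115, 122 and 126 CPM in the KLF4 libraries and was not in the MEF list, although both of its bins had 1 MEF pair each. How reads map in this stretch was not tested. The 3 next strongest pairs outside the MEF list were in the same stretch, and all 4 were also in the day 6 KLF4 and MEF Hi-C lists. The next 4 were on chromosome 19. The first joined 16460001 and 16470001 within Gna14, a G protein alpha subunit like Gnaq, with 27.3, 19.04 and 18.9 CPM. A pair at 29020001 in the body of Ak3, with 23.4, 22.7 and 18.9 CPM, a pair at 14610001, nearest to the start of Tle4, and a further Gna14 pair followed. Among the listed ones, the pair at the Ahnak start followed the Sfi1 pair, and then the pair at Avpi1, with 39.0, 35.0 and 25.8 CPM against 16.3 and 19.3, and the pair at Slc3a2, the amino acid transporter heavy chain, with 37.4, 32.9 and 24.6 against 17.4 and 17.4. At both Avpi1 and Slc3a2 every KLF4 library was above both H3K27ac libraries. Both pairs were chosen for their high KLF4 CPM, which favours such a gap. In either direction, the groups did not overlap at 36.0% of the 10867 shared pairs tested below.

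Bins with most KLF4 contacts differed in how many acetylated contacts they had. Their ranking rests on the cutoff set within each chromosome, which lets pairs of chromosome 19 in with fewer counts. The leading bin, at 32880001 on chromosome 19, had 26 day 3 KLF4 pairs and 16 MEF pairs, 14 of them shared, with no gene body at the bin and its nearest RefSeq start, of Gm36774, 45.3 kb away. The bin at 8990001 on chromosome 19, in the body of Ahnak, had 23 and 24 pairs, 20 of them shared, and 32 H3K27ac pairs in ES cells. The bin at 36400001 on chromosome 15, 30.6 kb from Gm34150, had 22 day 3 pairs but 1 MEF pair, the largest excess among bins with pairs in both lists. Next in excess came the Gna14 bin at 16460001 on chromosome 19, with 19 and 2. With the opposite excess, the bin at 28620001 on chromosome 19, in the body of the transcription factor gene Glis3, had 38 MEF pairs and 1 day 3 pair, and the bin at 57410001 on chromosome 16, in the bodies of Filip1l and Cmss1, had 28 and 1.

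Among pairs in both lists, a difference in contact strength was called at a minority. The raw counts of 10867 shared pairs were tested with edgeR (quasi-likelihood test, Benjamini-Hochberg adjustment), and 1605 pairs (14.8%) passed an adjusted p-value of 0.05, 540 higher in day 3 KLF4 (4.97%) and 1065 lower (9.80%). In simulated counts the test recovered 63% of 200 pairs changed 2-fold, with 4 false calls, so pairs without a call may still differ. The simulation gave all pairs the same variability and as many rises as falls, so its false calls give no error rate for these data. The labels do not say that these libraries came from separate cultures or animals, so p-values measure the spread between libraries, which may be technical. Scaling set the balance of directions: with contact totals in place of TMM factors, which centre the libraries on the shared pairs, the median log2 difference of all pairs moved from 0.03 to -0.15 and the calls became 147 higher and 1357 lower. Differences below are on the TMM scale, and positive where day 3 KLF4 was higher. Leaving out H3K27ac replicate 2 left 436 calls, 78 higher and 358 lower, and leaving out replicate 1 left 1298, 364 higher and 934 lower. Either fit has 1 H3K27ac library, which is assumed to vary like the KLF4 libraries. In the plot of the shared pairs the lower calls extend further from the diagonal.

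**Figure D4:**
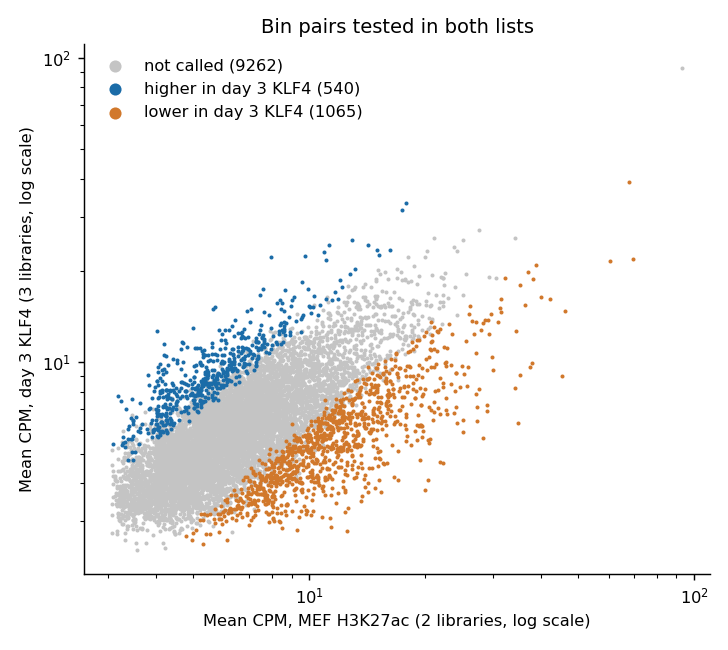
Mean deposited CPM of each bin pair tested, MEF H3K27ac (x axis, mean of 2 libraries) against day 3 KLF4 (y axis, mean of 3 libraries), both on log scales; colour marks pairs called higher (540) or lower (1065) in day 3 KLF4 by edgeR. The point at the upper right is the Sfi1 pair, at 92.4 and 93.0 CPM.

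Pairs higher in KLF4 recurred more often in the later KLF4 lists. Of the 540 higher pairs 57.8% (53.6 to 61.9) were in the ES KLF4 list and 33.7% (29.8 to 37.8) in the day 6 list, against 37.2% (34.3 to 40.1) and 11.6% (9.85 to 13.7) of the 1065 lower pairs. All pairs tested gave 41.4% and 14.6%. The higher pairs were also the stronger ones at day 3, with a median of 8.91 CPM against 5.30 for the lower pairs, and the part of strength in this was not tested. The ES KLF4 and day 6 lists share the antibody of the day 3 libraries. MEF Hi-C held 59.8% (55.6 to 63.9) of the higher and 63.0% (60.1 to 65.9) of the lower pairs, with intervals that overlap.

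The largest differences with a gene in a bin were spread over many loci, as the plot of the called pairs by library shows. The largest difference upward joined the bin of the long noncoding RNA gene Gm36500 with one 40 kb away on chromosome 13, at 13.7, 13.7 and 10.6 CPM in KLF4 against 4.15 and 3.91 in H3K27ac, a log2 difference of 1.77 ± 0.24 (SE; edgeR adjusted p = 3.9e-08). Pairs at Arl4d, a small GTPase gene, at Gnaq, Mtcl1, Gm30234, Gm41638, Gm34150 and Lmo7 followed, with log2 differences of 1.54 down to 1.33. At Gnaq the pair of bins at 16130001 and 16160001 had 24.2, 24.9 and 17.5 CPM against 5.61 and 10.3. The largest difference downward was at Ahnak, to a bin 80 kb away, at 5.46, 7.98 and 5.44 CPM in KLF4 against 29.8 and 39.9 in H3K27ac, a log2 difference of -2.30 ± 0.22 (SE; edgeR adjusted p = 5.1e-13). Pairs at Mapk6, at Tnc, which encodes the matrix protein tenascin C, at Dusp1, Gm34483, Srf, Gm40436 and Gm26698 followed, with log2 differences of -2.23 to -1.82. The Tnc pair had 3.76, 3.12 and 1.51 CPM against 11.4 and 13.7, and the Srf pair, at the gene of the serum response factor, 3.28, 4.73 and 1.96 against 8.98 and 16.3. In these 16 pairs the groups do not overlap, which held for 36.0% of all pairs tested and was part of how the 16 were chosen. Without H3K27ac replicate 2 the pairs at Mtcl1, Gm30234 and Lmo7 were no longer called, at log2 differences of 1.18, 1.23 and 1.21.

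**Figure D5:**
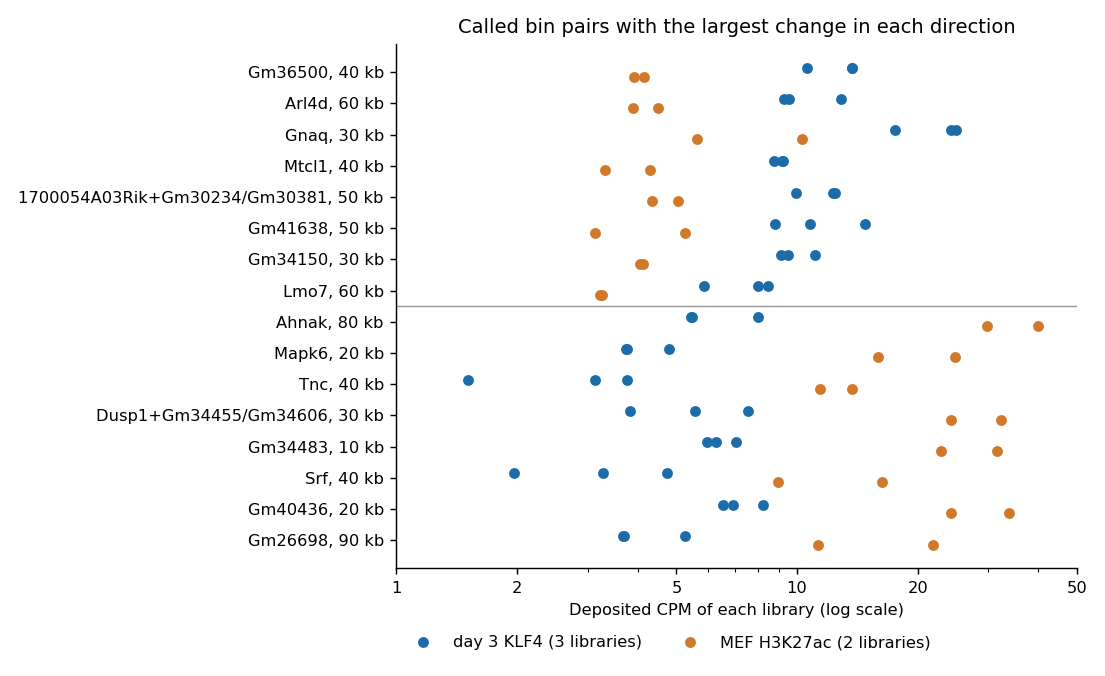
Deposited CPM of each library (log scale) at the 8 called bin pairs with the largest log2 difference upward (above the line) and the 8 downward (below it) among those with a gene start in a bin and groups that do not overlap; labels give the genes and the anchor distance, blue points the 3 day 3 KLF4 libraries and orange points the 2 MEF H3K27ac libraries.

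Genes with many shared pairs differed in the direction of their calls. Over all pairs tested 4.97% were called higher and 9.80% lower. At Ahnak 13 of 16 pairs were called lower and 0 higher, with a median log2 difference of -0.98, and its strongest pair had 50.7, 37.2 and 29.1 CPM in KLF4 against 51.6 and 84.1 in H3K27ac. Without H3K27ac replicate 2 the Ahnak calls came to 2 at a median of -0.78, without replicate 1 to 12 at -1.05, and with DESeq2's test to 4 at -0.96. At Dusp1 6 of 16 pairs were called lower (4 without replicate 2) and 0 higher, with a median of -0.54. Gnaq leaned the other way, with 5 of 13 pairs called higher and 0 lower and a median of 0.69, but with contact totals 2 were higher and 1 lower, and without H3K27ac replicate 2 only 1 was called, at a median of 0.55. Of 14 pairs tested at Gm30234 3 were called higher, of 12 at Avpi1 3 and of 12 at Gm41638 2, and with contact totals 2, 1 and 2. With DESeq2's test 0, 1 and 1 were called higher at these 3 genes. Their median log2 differences were 0.55, 0.29 and 0.28, and without H3K27ac replicate 2 they were 0.54, 0.20 and 0.42. At Emp1 and Bscl2 1 pair each was called lower, of 13 and 12, and the pairs lay on both sides of 0, from -0.66 to 0.61 and from -1.01 to 0.45.

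At AP-1, cytoskeleton, fibroblast and TGF-beta genes most calls were lower, as were most calls over all pairs tested (9.80% lower and 4.97% higher). Among the 23 shared pairs at AP-1 factors 10 (43.5%) were called lower and 0 higher, with a median log2 difference of -0.50 against 0.03 over all pairs tested. A Fosb pair, at 19310001 and 19320001 on chromosome 7, had 5.62, 4.75 and 5.95 CPM against 17.6 and 23.4, a log2 difference of -1.76 ± 0.20 (SE; edgeR adjusted p = 1.4e-10). Called pairs also lay at Fos, Junb, Atf3 and Maff. Among the 88 pairs at YAP/TEAD, SRF and cytoskeleton genes 34 (38.6%) were called lower, 13 of them at Ahnak, and 4 higher, with a median of -0.45. Lmna, which encodes lamins A and C, had 6 lower pairs, and Myh9 had 5. Amotl2 had 2 lower and 1 higher, and Tpm1 1 lower and 2 higher. With contact totals the lower calls of these 2 lists were 10 and 39 and the higher calls 0 and 0, and without H3K27ac replicate 2 the lower calls were 3 and 10, at medians of -0.55 and -0.35. Of 21 pairs at fibroblast genes 5 (23.8%) were called lower, at Col1a2, Col6a1, S100a4 and Sparc, and 0 higher, with a median of -0.18. Of 17 at TGF-beta genes 5 (29.4%) were called lower, at Ski, Tgif1 and Fstl1, and 0 higher, with a median of -0.13. Without H3K27ac replicate 2 those counts were 2 and 0, at medians of -0.12 and -0.17.

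Of 17 pairs at epithelial genes 2 were called higher, both at Tjp1, and 2 lower, at Cldn4 and Cldn6, which is 11.8% each way against 4.97% and 9.80% of all pairs tested. The Cldn6 bin also holds the starts of Hcfc1r1, Thoc6 and Tnfrsf12a, so its call cannot be assigned to Cldn6 alone. The Tjp1 pair of bins at 65370001 and 65410001 on chromosome 7 had 11.2, 10.2 and 8.26 CPM against 4.48 and 5.95, a log2 difference of 1.00 ± 0.23 (SE; edgeR adjusted p = 0.00081). Of 22 pairs at KLF and SP factors 4 (18.2%) were called lower, at Klf6, Klf9 and Sp2, and 1 higher, at Sp2. Of 24 pairs at cell cycle genes 1, at Cdkn1a, was called higher, of 16 at glycolysis genes 1, at Hk2, lower, and of 12 at ribosomal protein genes 0 passed. The 1 shared pair of the pluripotency list, at Nanog, did not pass.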

How the data were processed

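HiChIP contacts were measured in 3 day 3 KLF4 and 2 MEF H3K27ac libraries. Per the submitters' processing notes, Bowtie2 2.2.3 and the build mm10 were used; the contact caller and the test behind the deposited p-values are not given in the sources used here. Per the file headers, the authors deposited for each 10 kb bin pair raw counts, CPM and a distance-normalised ratio per replicate, and 1 p-value and FDR. The ratio was not used. The deposited CPM equals the count scaled by the contacts of the same chromosome, which gave the contact totals. Per the file headers, the deposited gene names per bin are other (text) columns of further H3K27ac lists of the series, used to place genes. They name genes only at anchor bins of those lists. Coordinates are 1-based.

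Lists were compared by identical bins, with 95% Wilson intervals that cover counting error only. Shared pairs were tested with edgeR 4.0.16 in R 4.3.3: quasi-likelihood test, filterByExpr, TMM factors on contact totals, only the 5 libraries, Benjamini-Hochberg adjustment over all pairs tested, checked on simulated data. DESeq2 1.42.0 was an alternative. Tables were handled in Python 3.11.15 with pandas 2.3.3, numpy 2.4.6 and scipy 1.17.1. Start sites and promoters came from RefSeq (GRCm38.p6; chromosome 18 not analysed here); 94.5% of 9383 authors' gene bins held the RefSeq start of that name. The replicates of each group differed beyond sampling noise, so none were merged.

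Genes were named by rule: the 8 with most shared pairs, the 8 with most day 3 pairs and no MEF pair, the genes at the 8 strongest listed and not listed pairs and at the 8 largest called differences each way whose groups do not overlap, the leading bins, and up to 4 leading members of each list; further list members were named after their values were seen. The members and gene lists were chosen with earlier results of these data known.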

Additional observations from a re-analysis of the deposited data

How the results depend on the processing

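The share of day 3 KLF4 pairs listed in MEF H3K27ac ranged widely with the choice of lists. It was 58.2% at a mean CPM of 6 or more, 39.2% for anchors 50 kb or more apart, 42.6% with 1 count cutoff for all chromosomes, 67.2% if anchors might lie 1 bin away, 24.7% with the MEF list cut to the length of the day 3 list, and 79.5% among the 127 pairs with the authors' FDR under 0.1. The share of anchors was 73.7%, 57.4%, 54.9%, 76.3% and 43.6% under the first 5 of these. The share of genes, by the authors' names, was 88.7%, 67.4% and 70.6% under the first 3, and 77.3% with RefSeq starts. The difference between listed and not listed pairs, in percentage points found in a later list, was 6.66 for day 6 KLF4, 18.7 for ES KLF4 and 21.5 for ES H3K27ac; it became 7.71, 20.2 and 24.7 at a mean CPM of 6 or more, 5.75, 13.6 and 18.01 at 50 kb or more, and 19.4 for ES H3K27ac with 1 count cutoff. The ratio of median CPM was 1.15 at 20 kb and 1.14 at 40 kb.

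Without each KLF4 library in turn, pairs being kept at a CPM above 3 in the others, the shares were 46.0% to 49.8% of pairs, 66.3% to 67.7% of anchors and 81.1% to 82.7% of genes, and the differences 6.04 to 6.66, 17.9 to 18.7 and 21.3 to 21.5 points. Without replicate 3 nothing could change, since replicates 1 and 2 exceed the cutoff at every listed pair. Without replicate 1 or 2 the same 19974 pairs were left, those above the cutoff in replicate 3. These ranges are therefore no check of each library. Without either H3K27ac library nothing could change, since both exceed the cutoff at every listed pair.

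The 1605 edgeR calls became 456 with DESeq2's test (85 higher, 371 lower), in which AP-1 factors had 4 lower calls and cytoskeleton genes 15, and 213 at 50 kb or more, where fewer pairs were tested. Leaving out each library in turn gave 436 to 1601 calls; without an H3K27ac library the other is assumed to vary like the KLF4 libraries. With a replicate block there were 1209; the replicate numbers are not stated to pair libraries, and the correlations of same-numbered deviations were -0.0128 and 0.0305. None of the 16 named pairs changed direction in the 181 values under alternatives, and 3 were weaker, each without H3K27ac replicate 2. The 16 were chosen as the largest called differences with groups that do not overlap. A change of direction was therefore unlikely from the start, and its absence is no check of these pairs.

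Limits: presence in a list has no replicate check, single pairs hold few counts, and antibody and day cannot be told apart.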
